A study of Mus musculus with 4 samples.

Results

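The Wnt genes described here are the Wnt ligands, their Frizzled receptors with the co-receptors Lrp5 and Lrp6, the secreted inhibitors of the Sfrp and Dkk families with Wif1, and the pathway's feedback and target genes Axin2, Nkd1 and Sp5. They were chosen by symbol among probe sets annotated to a single gene, which gave 44 of 18194 genes and 86 of 45037 probe sets. Each gene was represented by its probe set with the highest mean over the 4 arrays. The symbol rule also took in Fzd10os, a transcript opposite Fzd10 that is not a receptor.

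The arrays measured RNA of skin cells sorted by flow cytometry from mouse pups of the FVB background at postnatal day 4. The labels give harvest at 24 h after doxycycline injection for the littermates of both genotypes together and call the controls uninduced; they do not say separately that controls were injected, and they do not give the sorting gate. The 2 induced samples came from pups with the transgenes K14-rtTA, TRE-miR-203 and K14-H2BGFP, in which the keratin 14 promoter, active in basal keratinocytes, drives the doxycycline-dependent activator rtTA, and rtTA switches on a miR-203 transgene. The 2 control samples came from littermates with TRE-miR-203 and K14-H2BGFP, labelled wild type, which carry the miR-203 transgene and the nuclear green fluorescent protein but no activator. The groups therefore differ in rtTA as well as in miR-203, and possibly in doxycycline, and these cannot be told apart here. Replicates are labelled biological, and with 2 arrays a group the precision of every value is limited by their number.

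The microRNA that was switched on is shown for orientation. Its mature 3p arm, as RefSeq lists it at chr12:112130927-112130948 on the plus strand of GRCm38.p6, has the seed, bases 2 to 8, in capitals.
mmu-miR-203-3p: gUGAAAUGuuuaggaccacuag

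Wnt proteins are secreted, lipid-modified signals that bind a Frizzled receptor. When Lrp5 or Lrp6 joins the complex, beta-catenin escapes degradation and switches on target genes with TCF/LEF factors in the nucleus, a route called canonical, whereas ligands such as Wnt5a and Wnt11 are better known for signalling without beta-catenin. In skin, Wnt signalling is known for starting hair follicles, for the hair shaft precursors of the growing follicle and for maintaining basal epidermal cells.

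The whole data set bears on these values as follows. Replicate arrays correlated at 0.995 for controls and 0.994 for induced samples, against 0.991 to 0.993 between groups. Induced replicate 1 stood apart in sex-linked transcripts, with Xist at 5.86 against 10.6 to 11.2 on the other 3 arrays and Eif2s3y at 9.38 against 2.52 to 2.82. Kdm5d was at 7.14 against 2.47 to 2.69. The 2 induced arrays were thus unlike each other in sex-linked transcripts, and effects of sex cannot be told apart from other differences between them. Values without this array are given for many, but not all, of the larger differences below. All 7 basal and all 7 suprabasal keratinocyte markers were over the filter on low values, a mean log2 value of 4.17. Of the 7 endothelial markers 5 were under it, among them Pecam1 and Cdh5, while Kdr (5.35) and Cldn5 (4.38) were over it. Of the 10 dermal papilla markers 5 were under it, among them Corin and Sox2, and 5 over it, among them Bmp4 (7.17) and Inhba (5.29). Of the 8 skeletal muscle markers 5 were over it, among them Mylpf (6.90). All 5 sebaceous gland markers with a probe set were over the filter. Of the 10 fibroblast markers 4 were under it, Col1a1 being at 3.14, while Dcn and Fbln1 were over it at 8.06 and 7.77. All 8 melanocyte and all 8 Langerhans and other immune cell markers were over it, among them H2-Aa at 10.96 and Cd74 at 9.99. In such a bulk sample, fewer cells of a type and less RNA per cell cannot be told apart.

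Signal over the filter was found for 33 of the 44 genes (75%), as for 74.1% of all genes. By role these were 14 of 19 ligands, 12 of 13 in the receptor group, 4 of 9 secreted inhibitors and 3 of 3 feedback genes. A higher filter level of 5.54 left 25 of them, 11 ligands, 10 in the receptor group, 3 inhibitors and, of the feedback genes, Axin2. The ligands under the filter were Wnt1, Wnt2b, Wnt5b, Wnt8a and Wnt9b, whose values ran from 3.21 to 4.10 over the 4 arrays. Fzd9 was the 1 receptor under it (3.96 to 4.37), and the inhibitors under it were Dkk1, Dkk2, Dkk4, Sfrp2 and Wif1 (2.88 to 5.53). Nearest the filter on either side lay Sp5, with a mean of 4.29, and Fzd9, with 4.12. The file holds no detection calls, so passing the filter is the only measure of presence used, and a gene under it may still be expressed. Probe sets differ in how brightly they report the same amount of RNA, so levels are not ranked between genes.

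**Figure D1:**
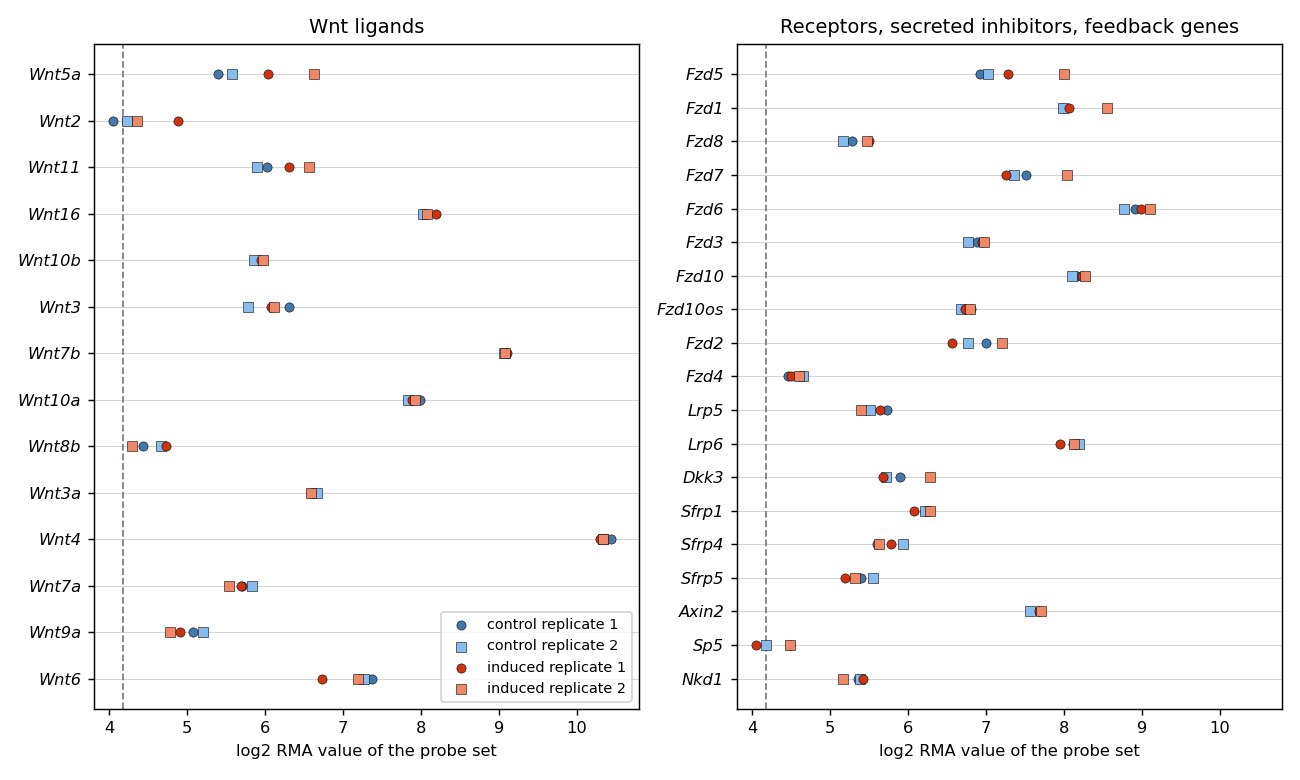
Deposited log2 value of each gene's probe set on each of the 4 arrays (circles replicate 1, squares replicate 2, blue control, red induced), for the 33 genes over the filter; the dashed line is the filter level of 4.17. Most genes have 4 nearly coinciding points, while for Wnt5a and Fzd5 both induced arrays lie to the right of both controls.

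Over the 33 genes the induced arrays were not shifted as a whole. The median difference between induced and control means was 0.01 on the log2 scale, against -0.0008 over all 13489 genes tested, and 17 genes had a higher mean and 16 a lower one. In limma 0 of the 33 had a Benjamini-Hochberg adjusted p under 0.05, as did 0 of all genes (0%), and the lowest adjusted p among the 33 was 0.291. Without adjustment 6 had a p under 0.05, namely Wnt5a, Wnt2, Wnt11, Fzd5 and Fzd8 with higher means and Wnt9a with a lower one, beside 9.62% of all genes (4.40% higher, 5.23% lower). When limma's eBayes step was run with its trend and robust options, 0 of the 33 passed, beside 0.600% of all genes. Both induced arrays lay on one side of both controls for 17 of the 33, 11 higher and 6 lower, beside 39.4% of all genes (20.1% higher, 19.3% lower). With a difference of at least 0.3 as well there were 6, beside 8.87% of all genes, 5 of them higher and 1 lower, beside 3.88% and 5.00%. Wnt2 passed the filter only through its induced values. Without it the unadjusted count was 5 of 32, the genes without overlap numbered 10 higher and 6 lower, and those with a difference of at least 0.3 numbered 4 and 1.

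**Figure D2:**
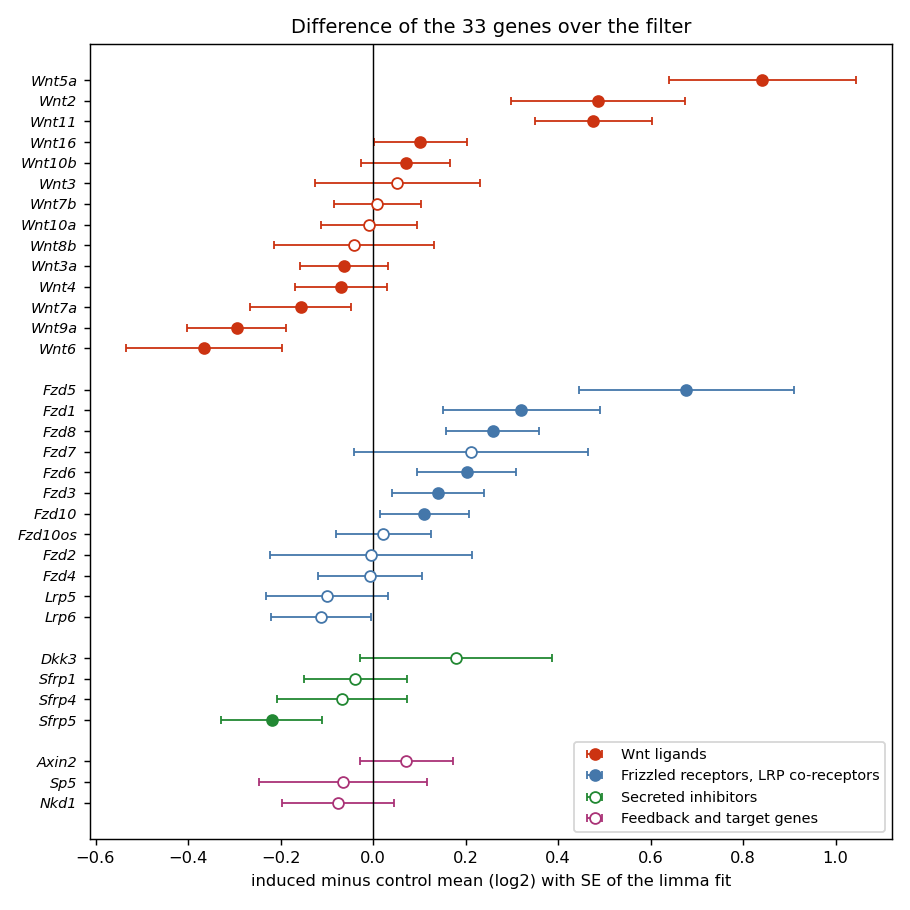
Difference in mean log2 value, induced minus control, with the standard error of the limma fit, for the 33 genes over the filter, ordered within each role; filled points are genes whose groups do not overlap. Wnt5a (0.84) and Fzd5 (0.68) lie farthest to the right and Wnt6 (-0.36) farthest to the left, and none passed the adjusted threshold.

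Among the ligands the 14 genes split evenly, 7 with a higher and 7 with a lower mean, and the median difference was 0.0005. For 10 of the 14 the groups did not overlap, beside 39.4% of all genes, 5 higher and 5 lower, beside 20.1% and 19.3%. Both counts of higher ligands include Wnt2, which passed the filter only through its induced values. None had an adjusted p under 0.05 in limma.

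Wnt5a, a ligand best known for signalling without beta-catenin, had the largest difference of the 33 genes. Its log2 values were 5.40 and 5.57 in the controls against 6.03 and 6.62 in the induced arrays. Both induced arrays were above both controls, replicate 2 by more than replicate 1. The difference was 0.84 ± 0.20 (SE, n = 2 and 2), or 1.79-fold, with an adjusted p of 0.291 in limma. It was 1.14 without induced replicate 1 and 0.55 without induced replicate 2.

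Wnt5a was covered by 4 probe sets, which allows a comparison within the gene. A dimmer one over the filter read 4.98 and 5.33 in the controls against 5.67 and 6.38, a difference of 0.87 ± 0.25. Another, under the filter, read 3.24 and 3.20 against 3.92 and 3.90. The last, also under the filter, read 3.45 and 3.56 against 3.43 and 3.45. The 3 that differed thus had non-overlapping groups in the same direction, and the groups of the last were not apart.

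Wnt11, another ligand known for beta-catenin-independent signalling, read 6.03 and 5.89 in the controls against 6.31 and 6.56 in the induced arrays. Both induced arrays were higher, and the difference was 0.48 ± 0.13 (1.39-fold, adjusted p = 0.326). It was covered by 1 probe set. Without induced replicate 1 it was 0.60 and without induced replicate 2 it was 0.35.

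Wnt2, a ligand of the canonical route, read 4.05 and 4.22 in the controls against 4.88 and 4.36 in the induced arrays. The groups did not overlap, but induced replicate 2 lay close to the higher control. The difference was 0.49 ± 0.19 (adjusted p = 0.477), and 0.22 without induced replicate 1 and 0.75 without induced replicate 2. The control mean of 4.13 lay under the filter level, so Wnt2 passed the filter through its induced values, and no fold is given.

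Wnt6, a ligand found in epithelia, was the 1 member lower by at least 0.3 without overlap. It read 7.37 and 7.27 in the controls against 6.72 and 7.19 in the induced arrays, with replicate 2 just below the controls. The difference was -0.36 ± 0.17 (adjusted p = 0.550), and it was -0.13 without induced replicate 1 and -0.60 without induced replicate 2. A dimmer probe set gave -0.34 ± 0.27 with groups that overlapped.

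For Wnt9a and Wnt7a, too, both induced arrays lay below the controls. Wnt9a read 5.08 and 5.19 against 4.91 and 4.77, a difference of -0.29 ± 0.11 (adjusted p = 0.449). For Wnt7a, known for its role in epithelia of skin and limb, the difference was -0.16 ± 0.11 (adjusted p = 0.708), and a dimmer probe set over the filter gave -0.33 ± 0.11. Without induced replicate 2 the difference of Wnt7a was -0.08.

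The 3 ligands with the brightest probe sets, Wnt4, Wnt7b and Wnt16, differed little. Wnt4 read 10.4 and 10.3 in the controls against 10.3 and 10.3 in the induced arrays, a difference of -0.07 ± 0.10 (adjusted p = 0.892), and a dimmer probe set gave -0.28 ± 0.12. Wnt7b read 9.09 and 9.07 against 9.09 and 9.08, a difference of 0.01 ± 0.09 (adjusted p = 0.992). Wnt16 read 8.05 and 8.02 against 8.20 and 8.08, a difference of 0.10 ± 0.10 (adjusted p = 0.817), and 0.04 without induced replicate 1. In these brightest probe sets each difference was within about 1 standard error of 0, although the groups of Wnt4 (lower) and Wnt16 (higher) did not overlap. The dimmer probe set of Wnt4 lay farther from 0, also without overlap between the groups.

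The remaining ligands lay close to 0. Wnt10a and Wnt10b, known for expression in hair placodes and the hair matrix, differed by -0.01 ± 0.10 and 0.07 ± 0.10. Wnt3 and Wnt3a, canonical ligands, differed by 0.05 ± 0.18 and -0.06 ± 0.09, and Wnt8b by -0.04 ± 0.17. Of these 5, the groups did not overlap for Wnt10b (higher) and Wnt3a (lower), at sizes within 1 standard error.

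**Figure D3:**
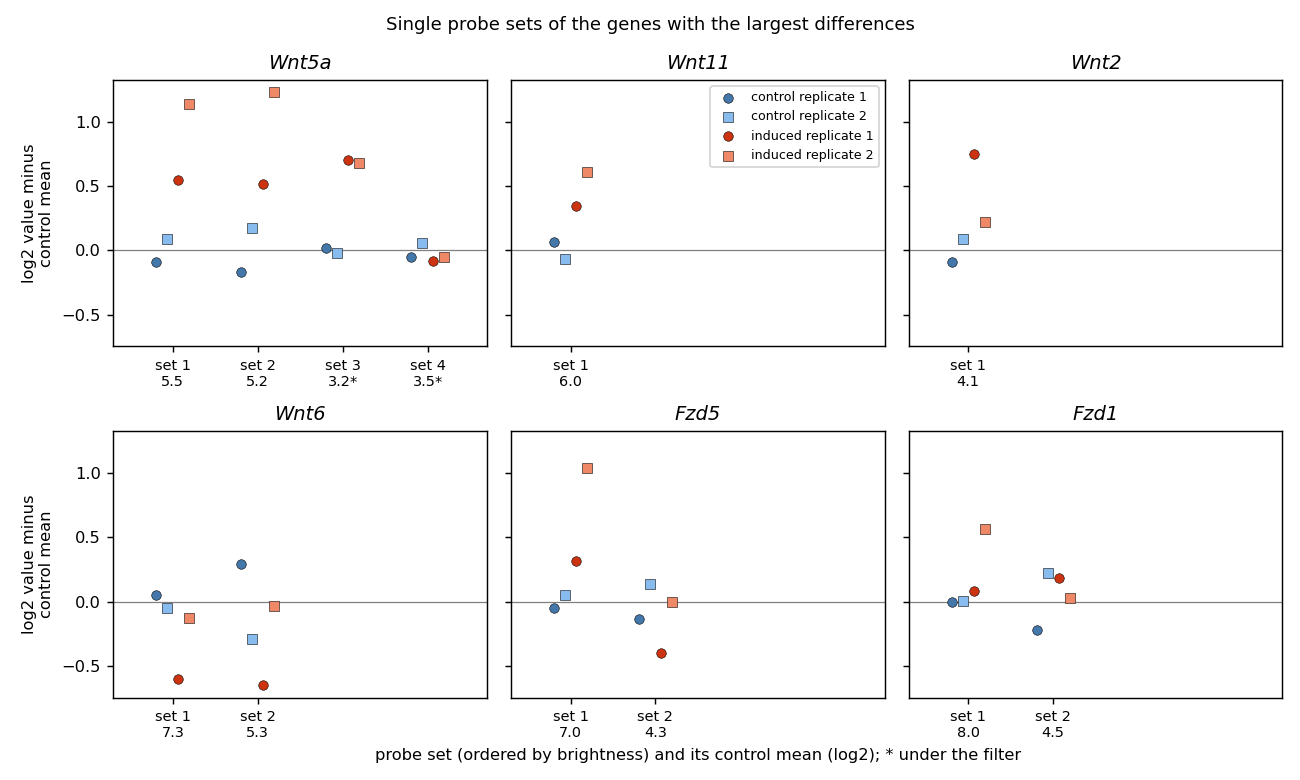
Values of every probe set of 6 genes as log2 value minus the mean of the controls of that probe set, on each of the 4 arrays; numbers under the axis are the control means, and an asterisk marks probe sets under the filter. For Wnt5a, the induced arrays lie between 0.51 and 1.23 above the control mean in 3 of the 4 probe sets, whereas the second probe set of Fzd5 shows no such offset.

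Among the receptors, the Frizzled genes had higher means in the induced arrays more often than lower ones. The receptor group of 12, with Lrp5, Lrp6 and Fzd10os, had a median difference of 0.13, with 8 higher and 4 lower means. Without Fzd10os, an alternative chosen after seeing the data, the median was 0.14. For the 9 Frizzled genes themselves the median was 0.20, 7 means were higher, and for 6 the groups did not overlap, each of these with higher induced values, beside 20.1% of all genes. The median of the 9 was 0.26 without induced replicate 1 and 0.09 without induced replicate 2. Setting these 9 apart was decided after their values were seen. None passed the adjusted threshold in limma, and with the mean of each gene's kept probe sets in place of the brightest the median of the 12 was 0.04.

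Fzd5, a receptor for canonical ligands and for Wnt5a, had the largest difference. It read 6.91 and 7.02 in the controls against 7.28 and 8.002 in the induced arrays. Both induced arrays were higher, replicate 2 by far the more. The difference was 0.68 ± 0.23 (1.60-fold, adjusted p = 0.426), and it was 1.04 without induced replicate 1 and 0.32 without induced replicate 2. Its second probe set, close to the filter with a control mean of 4.28, gave -0.20 ± 0.17, so the direction rests on 1 probe set.

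Fzd1 read 7.99 and 7.99 in the controls against 8.07 and 8.55 in the induced arrays. Both induced arrays were higher, and replicate 2 by far the more, with a difference of 0.32 ± 0.17 (1.25-fold, adjusted p = 0.605). Without induced replicate 2 it was 0.08 and without induced replicate 1 it was 0.56. Fzd8 read 5.28 and 5.16 against 5.49 and 5.47, so that here the induced arrays were close to each other, with a difference of 0.26 ± 0.10 (adjusted p = 0.477).

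Fzd6, known for orienting hair follicles through planar cell polarity, read 8.91 and 8.77 in the controls against 8.99 and 9.10 in the induced arrays. The groups did not overlap, and the difference was 0.20 ± 0.11 (adjusted p = 0.601). Its second probe set over the filter gave -0.07 ± 0.13. Fzd10 read 8.17 and 8.10 against 8.22 and 8.27, a difference of 0.11 ± 0.10 (adjusted p = 0.782). Fzd3, which acts in planar polarity as well, differed by 0.14 ± 0.10 in its brightest probe set and by -0.11 to 0.26 over the 3 others that were kept.

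For Fzd7 and Fzd2 the groups overlapped, with 1 induced array above both controls and the other below them. Fzd7 read 7.50 and 7.36 in the controls, 7.25 in induced replicate 1 and 8.04 in induced replicate 2, and the difference was 0.21 ± 0.25. Its second, dimmer probe set gave -0.37 ± 0.14, lower in both induced arrays and without overlap between the groups. Fzd2 read 7.003 and 6.77 in the controls, 6.56 in induced replicate 1 and 7.20 in induced replicate 2, a difference of -0.0044 ± 0.22.

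Fzd4, Fzd10os and the co-receptors differed by no more than about their standard errors. The differences were -0.0063 ± 0.11 for Fzd4, 0.02 ± 0.10 for Fzd10os, -0.10 ± 0.13 for Lrp5 and -0.11 ± 0.11 for Lrp6. The groups overlapped for all 4. The second kept probe set of Lrp6 had the opposite sign, at 0.10 ± 0.13.

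The secreted inhibitors over the filter were Sfrp1, Sfrp4 and Sfrp5, which bind Wnts through a Frizzled-like domain, and Dkk3, a divergent member of the Dickkopf family. Their median difference was -0.05, with 1 higher and 3 lower means, and none passed the adjusted threshold. Sfrp1 read 6.22 and 6.22 in the controls against 6.07 and 6.28 in the induced arrays, a difference of -0.04 ± 0.11. Its 3 other kept probe sets differed by 0.12, 0.12 and 0.30, so that its direction is uncertain. Sfrp4 read 5.60 and 5.93 against 5.78 and 5.62, a difference of -0.07 ± 0.14. For both genes the groups overlapped.

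Dkk3 read 5.89 and 5.71 in the controls, 5.68 in induced replicate 1 and 6.28 in induced replicate 2, so that the induced arrays lay on either side of the controls. The difference was 0.18 ± 0.21. Sfrp5 was the 1 inhibitor without overlap, at 5.40 and 5.54 against 5.18 and 5.32, a difference of -0.22 ± 0.11 (adjusted p = 0.584). A dimmer probe set of Sfrp5 gave -0.19 ± 0.10, also without overlap, and without induced replicate 1 the difference was -0.15.

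Wif1, a secreted protein that binds Wnts, was under the filter by its mean and was not tested. It read 3.46 and 3.79 in the controls, 3.14 in induced replicate 1 and 5.53 in induced replicate 2. The single high array made its groups overlap. Dkk1, a classical inhibitor that blocks Lrp5 and Lrp6, read 3.64 and 3.69 against 3.51 and 3.39, all under the filter level.

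The feedback genes, which beta-catenin and TCF factors switch on and which serve as readouts of the canonical route, differed by less than their standard errors in their brightest probe sets. Axin2, a scaffold of the complex that degrades beta-catenin, read 7.68 and 7.56 in the controls against 7.67 and 7.71 in the induced arrays. The difference was 0.07 ± 0.10 (adjusted p = 0.889), and the groups overlapped. Nkd1, an inhibitor of Dishevelled, read 5.35 and 5.38 against 5.42 and 5.16, a difference of -0.08 ± 0.12. Its next probe set gave 0.30 ± 0.12 without overlap between the groups, so its direction depends on the probe set. Sp5, a transcription factor gene, read 4.48 and 4.17 against 4.04 and 4.48, close to the filter, a difference of -0.07 ± 0.18. Lef1, a nuclear factor and a target itself, read 7.40 and 7.39 against 7.06 and 7.62, a difference of -0.05 ± 0.19.

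Since these genes can be targets of the pathway themselves, their promoters were searched for the TCF/LEF motif, to show which carry it. The motif searched was CTTTGNN, each N being A or T, on both strands, within 250 bases before and 50 after a RefSeq start site of GRCm38.p6. Of the 44 genes 29 had such a window, 32 windows in all, and 6 of these (18.8%) held a match, as did 16.9% of all 32851 windows. Of the genes over the filter 20 had a window, and Wnt5a, which had none, was not searched. The genes over the filter with a match were Sp5, Wnt11, Fzd7 and Wnt3. Their matches are printed with the motif in capitals and 10 bases on either side, on the strand on which the motif reads forward.
Sp5 (chr2:70474809-70474835, plus): gcaaggccccCTTTGATcaggaaaatc
Sp5 (chr2:70474691-70474717, minus): gacaaagtgtCTTTGTTatctctagga
Wnt11 (chr7:98835051-98835077, minus): cggaccgtcgCTTTGATccgcccacgt
Fzd7 (chr1:59482007-59482033, minus): caatagcgcgCTTTGTTttctctgtgg
Wnt3 (chr11:103774183-103774209, plus): ctcaagtggaCTTTGTTccaactattg

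The matches of Sp5, Wnt11 and Fzd7 lay upstream of the start site and that of Wnt3 just downstream of it. These 4 genes differed by -0.07, 0.48, 0.21 and 0.05 in the order Sp5, Wnt11, Fzd7 and Wnt3. Those of Sp5, Fzd7 and Wnt3 were within their standard errors, so no direction is read from them. A match is a description of the letters and not a binding site.

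Outside these genes, the pathway lists held 75 genes by role, of which 64 were over the filter. Their median difference was 0.02, with 38 higher and 26 lower means, 0 with an adjusted p under 0.05 in limma, and 9 at an unadjusted p under 0.05 (5 higher, 4 lower), beside 9.62% of all genes. For 16 the induced arrays lay above both controls and for 9 below, beside 20.1% and 19.3% of all genes. The genes with the largest test statistics were Msx2, Nkd2 and Dvl1 with higher and Sostdc1, Apc and Ctnnb1 with lower induced values.

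Sostdc1, a secreted inhibitor of both Wnt and BMP signalling that binds Lrp co-receptors, had the largest difference of the pathway lists. It read 11.2 and 11.2 in the controls against 10.2 and 10.5 in the induced arrays. Both induced arrays were lower, and the difference was -0.83 ± 0.12 (1.78-fold lower), with an adjusted p of 0.173 in limma. With the trend and robust options its adjusted p was 0.0186, which made it the 1 pathway gene past the threshold there, and over the other alternatives its adjusted p ran from 0.0795 to 0.740. A dimmer probe set gave -0.81, and without induced replicate 1 the difference was -0.71.

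Of the inner machinery, Ctnnb1, the gene of beta-catenin, read 12.5 and 12.5 in the controls against 12.2 and 12.2 in the induced arrays, a difference of -0.29 ± 0.10 (adjusted p = 0.414). Its 2 other kept probe sets gave -0.48 and -0.38. Apc, whose product helps degrade beta-catenin, read 8.04 and 8.07 against 7.45 and 7.78, a difference of -0.44 ± 0.13 (adjusted p = 0.373), with -0.20, -0.21 and 0.0043 in its other kept probe sets. It was -0.28 without induced replicate 1 and -0.21 as the mean of its kept probe sets. Dvl1, a Dishevelled gene that relays the receptor signal, differed by 0.28 ± 0.10 (adjusted p = 0.423). The 14 genes of the destruction complex and Dishevelled list had 9 higher and 5 lower means and a median of 0.05, and none passed the adjusted threshold.

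Nkd2, a Dishevelled inhibitor related to Nkd1, read 5.54 and 5.69 in the controls against 5.90 and 6.45 in the induced arrays, a difference of 0.56 ± 0.19 (adjusted p = 0.420), and its 3 other kept probe sets gave 0.11 to 0.40. It was 0.29 without induced replicate 2, 0.83 without induced replicate 1 and 0.36 as the mean of its kept probe sets. Msx2, a homeobox gene of the hair matrix, read 6.58 and 7.05 against 7.32 and 7.70, a difference of 0.70 ± 0.20 (adjusted p = 0.354), and 0.46 without control replicate 1. The 9 kept genes of other receptors and planar polarity had a median of 0.12, 7 of them with higher means, among them Vangl2 (0.30 ± 0.11) and Celsr1 (0.28 ± 0.10), 2 core planar polarity genes, whereas Ror1, a receptor for Wnt5a, was lower without overlap (-0.29 ± 0.13). The 13 nuclear factors had a median of -0.0012, and 0 of them had an unadjusted p under 0.05.

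**Figure D4:**
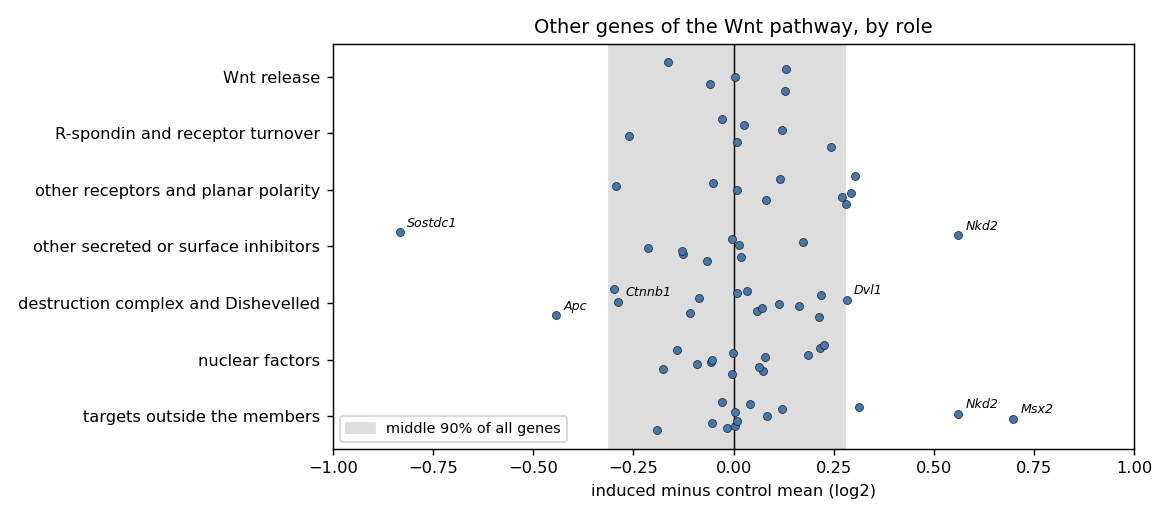
Difference in mean log2 value, induced minus control, of each other pathway gene over the filter, 1 row for each list (a gene on 2 lists is drawn in both); the grey band holds the middle 90% of all genes, from -0.31 to 0.28. Most points lie within the band, with Sostdc1 (-0.83) and Apc (-0.44) to its left and 7 genes to its right, Msx2 (0.70) and Nkd2 (0.56) the farthest.

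Some marker lists differed between the arrays alongside several of these values, although no marker had an adjusted p under 0.05 in limma. Some genes are on a pathway list and a marker list at once. Among them are Msx2 and Lef1 (hair matrix) and Sox9, Lgr5 and Tcf7l1 (outer root sheath and bulge). Of the 13 kept hair matrix and precortex markers 11 had a higher mean in the induced arrays, 9 without overlap and all 9 higher, beside 20.1% of all genes, with a median of 0.67 and a mean log2 level of 8.82 and 9.09 in the controls against 9.28 and 9.75 in the induced arrays. That order of the induced arrays, replicate 2 above replicate 1 above the controls, was also that of Wnt5a, Wnt11, Fzd5 and Fzd1. It was that of Wnt10b, Fzd3, Fzd6 and Fzd10 too, whereas Wnt2, Wnt16 and Fzd8 had replicate 1 the higher. The order is that of the list's mean level and not of every marker. Within the list Foxn1 and Krt31 also had replicate 1 the higher. Krt35, Gata3, Shh and Lef1 had induced replicate 1 below a control. The share of all genes with this order was not counted. The melanocyte list of 8 read 8.36 and 8.35 in the controls, 8.27 in induced replicate 1 and 8.79 in induced replicate 2, and the 9 kept markers of the outer root sheath and bulge read 8.11 and 8.13 against 7.89 and 8.37, with 5 higher and 4 lower means and a median of 0.0085. The 6 kept fibroblast markers read 5.83 and 6.02 against 5.66 and 6.13. The part of these cell types in the differences of the Wnt genes was not tested.

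Some genes whose groups overlapped had the induced arrays on opposite sides of the controls. Induced replicate 2 was the highest and induced replicate 1 the lowest of the 4 arrays for 5 of the 33 genes, Fzd7, Fzd2, Dkk3, Sfrp1 and Sp5, beside 7.53% of all genes. The order was found for 5 of 9 outer root sheath and bulge markers, Dkk3 being 1 of them, for 4 of 8 melanocyte markers and 3 of 6 fibroblast markers. It was also found for 2 of 13 hair matrix, 1 of 7 basal and 1 of 5 sebaceous markers, and for 0 of the kept suprabasal, dermal papilla, immune, endothelial and muscle markers. The reverse order, induced replicate 1 highest and induced replicate 2 lowest, held for 2 of the 33 genes, Nkd1 and Wnt8b, beside 6.34% of all genes. Sonic hedgehog (Shh), a signal of the hair matrix, read 7.05 and 6.52 in the controls, 5.91 in induced replicate 1 and 7.45 in induced replicate 2. Lhx2, a transcription factor of the bulge and hair placode, read 6.57 and 6.29 against 5.88 and 7.44. Wif1, under the filter, followed the same order. Over all 33 genes induced replicate 2 was above induced replicate 1 for 23, with a median gap of 0.05, beside 7184 of 13489 genes and a median gap of 0.01.

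The 7 basal keratinocyte markers, in contrast to the hair matrix markers, had a median of -0.17, 6 of them without overlap and lower in both induced arrays, beside 19.3% of all genes, with a mean level of 10.6 and 10.6 in the controls against 10.3 and 10.4. The 7 suprabasal markers had a median of -0.03. Relative to the control mean, the basal list was at -0.29 and -0.24 in induced replicates 1 and 2, and the 5 kept sebaceous gland markers were at -0.31 and 0.01. Wnt6 was at -0.60 and -0.13 in the same arrays. The part of these cells in the values of Wnt6 and Sostdc1 was not tested.

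**Figure D5:**
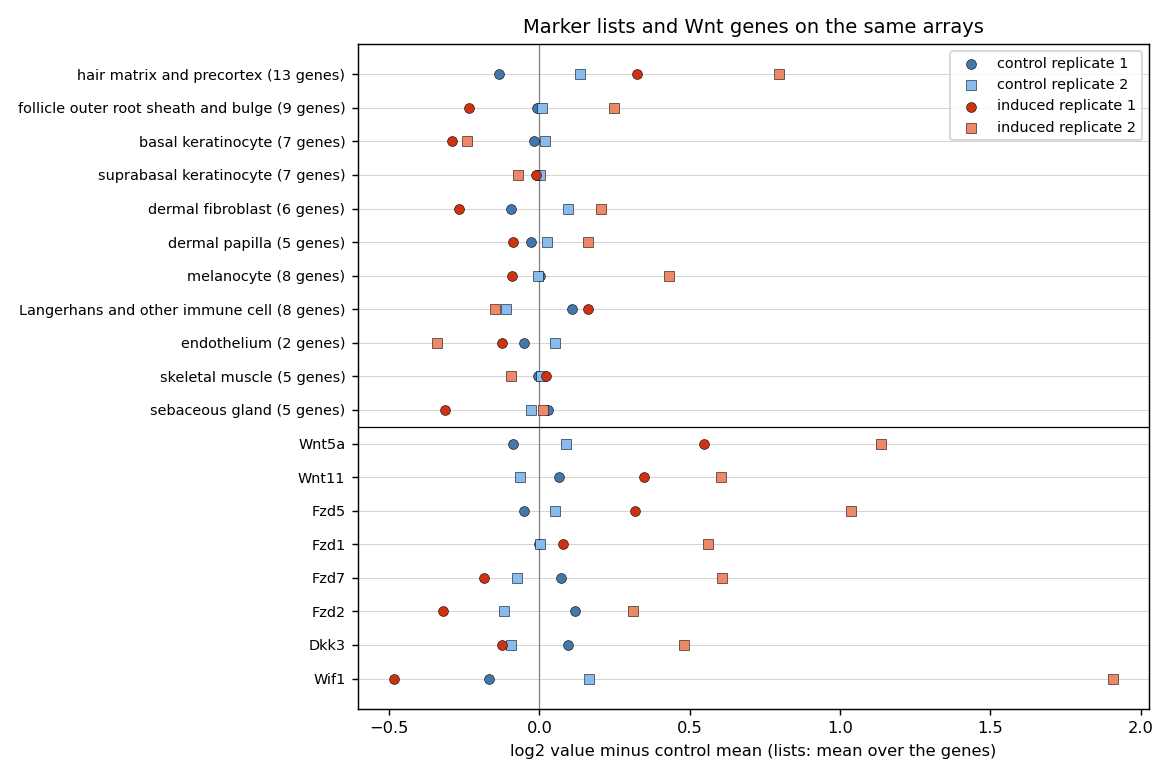
Mean log2 value of each marker list (upper rows) and log2 value of 8 Wnt genes (lower rows) on each of the 4 arrays, as the difference from the mean of the controls. Hair matrix markers, Wnt5a, Wnt11, Fzd5 and Fzd1 have both induced arrays to the right of both controls, whereas Fzd7, Fzd2, Dkk3 and Wif1 have induced replicate 1 to the left and induced replicate 2 to the right.

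For 17 of the 33 genes 2 or more probe sets were over the filter. All kept probe sets had 1 sign for 8 of them, among them Wnt4, Wnt5a, Wnt6, Wnt7a and Sfrp5, and 9 had a kept probe set of the opposite sign, namely Fzd2, Fzd3, Fzd5, Fzd6, Fzd7, Lrp6, Nkd1, Sfrp1 and Wnt7b. Of the genes with groups apart and a difference of at least 0.3, Wnt5a, Wnt6 and Fzd1 thus had more than 1 kept probe set in agreement in sign. The second of Fzd1, close to the filter with a control mean of 4.45, gave only 0.11 ± 0.17 with groups that overlapped. Fzd5 had no such agreement, and Wnt11 and Wnt2 had 1 probe set.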

How the data were processed

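Each sample was run on 1 Affymetrix array, as the labels' protocols state. The file holds log2 expression values per probe set that the authors computed with RMA, per the submitters' processing notes, which name no version. RMA gives all arrays a common probe distribution and so hides any shift in total RNA. Of the 45101 probe sets 64 were controls and were not used. Gene names came from the platform annotation, brought up to date with RefSeq's gene table for GRCm38, and 34945 probe sets carried a single gene, 932 several and 9160 none. Those with a mean below the 40th percentile (4.17) were dropped, and 27022 were tested.

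The groups were compared with limma 3.58.1 under R 4.3.3 (a linear model with eBayes, two-sided, no block), and p-values were adjusted by Benjamini-Hochberg over all 27022. Differences are induced minus control means, with the standard error of the fit. The fit had 2 residual and 3.82 prior degrees of freedom and a prior standard deviation of 0.115. P-values measure the spread between these samples, much of it pooled across probe sets. The fit was also run on simulated data as a check of its working, and its recovery of differences of the sizes given here is not reported.

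Values in every array are given for genes without overlap and a difference of at least 0.3 and for the 3 brightest of each role. Some others were added after their values were seen. Of the other pathway genes, the 3 with the largest statistic in each direction are named, with a few picked after the results. Genes and lists were chosen with earlier results of these data known. As alternatives, the filter, the scaling, the variance prior, the handling of several probe sets, a replicate block and the omission of single arrays were tried.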

Additional observations from a re-analysis of the deposited data

Results flagged for a closer look

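Wif1 was flagged because a probe set outside the test, under the filter on low values, had a signal in 1 induced array above both controls. It reached 5.53 in induced replicate 2 against 3.46 and 3.79 in the controls, while induced replicate 1 read 3.14. The difference between the groups was not tested.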

How the results depend on the processing

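The number of the 33 genes with an adjusted p under 0.05 in limma was 0 under every alternative run. With eBayes's trend and robust options 1 other pathway gene was called, beside 0.600% of all genes. When the kept probe sets of each gene were averaged, the receptor median was 0.039 and that of the feedback genes 0.072. The latter was also 0.072 with the filter at the 60th percentile, which leaves Axin2 alone. Averaging also changed the sign of Fzd7 (-0.081), Sfrp1 (0.12), Nkd1 (0.085) and Wnt7b (-0.042), each of which has a kept probe set of the opposite sign. Wnt7b was at -0.0062 after a second quantile normalization, where the cause was not tested.

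Leaving out 1 array at a time leaves a group with a lone array, assumed to vary like the other group. The genes without overlap then numbered 23 to 26, beside 68.8 to 71.1% of all genes. The ligand median ran from -0.020 to 0.042 and that of the feedback genes from -0.061 to 0.088, that of the receptor group from 0.049 (without induced replicate 2) to 0.20 (without induced replicate 1) and that of the inhibitors from -0.13 to 0.023. Differences that changed sign ran from -0.21 to 0.31 (Wnt3), -0.0006 to 0.019 (Wnt7b), -0.082 to 0.066 (Wnt10a), -0.26 to 0.18 (Wnt8b), -0.18 to 0.61 (Fzd7), -0.040 to 0.084 (Fzd10os), -0.32 to 0.31 (Fzd2), -0.10 to 0.088 (Fzd4), -0.22 to 0.020 (Lrp5), -0.12 to 0.48 (Dkk3), -0.14 to 0.065 (Sfrp1), -0.23 to 0.094 (Sfrp4), -0.29 to 0.16 (Sp5) and -0.21 to 0.053 (Nkd1).

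The labels do not say that replicate numbers mark a litter, and deviations of same-numbered arrays correlated at -0.1001. With the replicate number as a block 3 of the 33 genes had an unadjusted p under 0.05, against 6 without it, and 0 an adjusted one in limma. With the numbers crossed in the induced group, a block added after seeing the data, these counts were 6 and 0. The unadjusted share of all genes was not counted under either block, so no change is read from these counts. With 2 arrays a group, small changes are not detectable, and larger ones can go uncalled as well. Over all genes the differences ran from -2.16 to 3.38, and none had an adjusted p under 0.05 in the main limma fit.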
